A study of Mus musculus with 234 samples.

Results

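The natriuretic peptide system was followed in single cardiomyocytes (CMs) through 6 genes chosen by name: the peptide genes *Nppa* and *Nppb*, the protease genes *Corin* and *Furin*, and the receptor genes *Npr1* and *Npr3*. All 6 were found among the 55538 features of the count matrix, and each had a count in at least some of the 234 cells. Atrial natriuretic peptide (ANP, from *Nppa*) and B-type natriuretic peptide (BNP, from *Nppb*) are hormones that the heart releases under stretch, and they lower blood pressure and volume. In the healthy heart after birth ANP is mainly a product of the atria, and both genes are known to be switched on again in ventricular CMs of the failing heart. Corin, a membrane protease of CMs, cleaves the ANP precursor, and furin, a protease of the secretory pathway, cleaves the BNP precursor. Corin is itself activated by the convertase PCSK6. *Npr1* encodes the guanylyl cyclase receptor through which both peptides raise cGMP, and *Npr3* the clearance receptor that removes them.

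The cells came from 5 mice and bear 5 genotype labels. Control CMs (strain C57BL/6 in the labels and wt in the sample titles) were taken from 2 mice, M26 with 24 cells and M73 with 9. The study's methods define control mice more widely, as siblings that were wild type or carried PGK-Cre or the unrecombined construct alone. Transgenic CMs (PGKcre:BAG3P209L) carry a conditional human BAG3 P209L-eGFP construct driven by the CAG promoter at the Rosa26 locus, recombined by PGK-Cre, and were labelled bright or dim by their fluorescence. The homozygous mice gave 21 cells labelled bright and 18 dim (M25) and 59 bright and 50 dim (M116), and the single heterozygous mouse M72 gave 27 labelled bright and 26 dim. Control and homozygous mice were 2 weeks old, and the age of mouse M72 is not given in the sources used here. The line has a mixed background. Cells were picked by hand after Langendorff digestion, so the choice of cells limits what they represent.

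A cell held between 487 and 1392253 counts (median 711527), and the sums over the cells of a mouse and class held between 4096609 counts (control mouse M73) and 40508124 (bright CMs of mouse M116). Levels below are normalized CPM, which are counts of such a sum per 1e+06 counts of its TMM-adjusted total. Values in CPM alone are not adjusted. Intervals in parentheses are 95% Poisson intervals and cover counting error only. The titles name library plates, grouped here by the stem of the plate name into 2 library sets. One set held control mouse M26 with homozygous mouse M25, and the other held control mouse M73 with mice M116 and M72. In the second set mice M73 and M72 shared 1 plate and mouse M116 lay on 2 others, so mouse M116 and its control share no plate. The transgene feature hBAG stood at 280 (M25) and 209 (M116) normalized CPM in bright homozygous CMs, at 10.4 and 91.1 in dim ones, and at 0.446 and 0.580 in control mice M26 and M73. In mouse M72 it went against the labels: cells labelled bright held 110 normalized CPM and cells labelled dim 243, and BAG-eGFP gave 65.4 and 202. The classes of mouse M72 are therefore called by their labels only, and no direction by fluorescence is drawn from them.

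Of the 4 ventricular markers, the cells carried the light chain genes at high levels. *Myl2*, the ventricular light chain, had a count in each of the 234 cells and lay between 8463 and 13500 CPM of the sums. *Myl3* lay between 9886 and 12340 CPM. The other markers were low and patchy. *Irx4* lay between 6.78 and 48.3 CPM, with a count in 1 of 9 cells of control mouse M73. *Hey2* lay between 0 and 13.2 CPM, with a count in 0 of 21 bright CMs of mouse M25. Of the atrial markers, *Sln* and *Bmp10* had no count in any cell and *Myl7* had counts in 4 cells. *Myl4*, the atrial essential light chain, had counts in 40 cells and lay at 1.90 and 1.16 normalized CPM in control mice M26 and M73, at 3.88 and 6.90 in bright and 2.31 and 3.00 in dim CMs of mice M25 and M116. Both bright values of *Myl4* were above those control and dim values, with a log2 fold change of 1.78 against control CMs (standard error 1.35, adjusted p = 0.925 in edgeR), and its part in the *Nppa* levels was not tested. The 6 atrial markers together lay between 1.47 and 13.0 CPM. Markers of other cell types were present: the 6 endothelial markers together lay between 53.6 and 157 CPM, and the 6 fibroblast markers between 33.0 and 493 CPM in all sums except the bright CMs of mouse M25, where they reached 2473 CPM. In 72 of the 234 cells the 21 markers of endothelial cells, fibroblasts, smooth muscle and immune cells exceeded 100 CPM together. What they bring to each gene is given beside the results.

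*Nppb* and *Nppa* lie next to each other on mouse chromosome 4, with 13516 bases between them. In the GENCODE vM21 annotation of GRCm38, *Nppb* (ENSMUSG00000029019.8) spans chr4:147985788-147987205 and *Nppa* (ENSMUSG00000041616.9) chr4:148000722-148002079, both on the plus strand. The promoter windows of both genes (RefSeq, GRCm38.p6, plus strand, 250 bases before to 50 bases after the RefSeq start) are shown because the main differences below concern this pair. *Nppa* has chr4:148000472-148000771 and *Nppb* chr4:147985650-147985949, and the RefSeq start of *Nppb* lies 112 bases downstream of the GENCODE start. Capitals mark every match on either strand to 5 motifs. TATAAA is the TATA box, CATTCC is the MCAT element bound by TEAD factors, TGATAA is bound by GATA factors, CACTTA by the cardiac factor NKX2-5, and so is its variant CACTTG.
Nppa: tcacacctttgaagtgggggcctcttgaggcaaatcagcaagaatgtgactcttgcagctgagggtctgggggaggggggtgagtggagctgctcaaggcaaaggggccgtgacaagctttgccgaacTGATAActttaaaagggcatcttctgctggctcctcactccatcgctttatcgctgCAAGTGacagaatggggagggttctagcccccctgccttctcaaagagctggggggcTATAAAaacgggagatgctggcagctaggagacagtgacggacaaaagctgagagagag
Nppb: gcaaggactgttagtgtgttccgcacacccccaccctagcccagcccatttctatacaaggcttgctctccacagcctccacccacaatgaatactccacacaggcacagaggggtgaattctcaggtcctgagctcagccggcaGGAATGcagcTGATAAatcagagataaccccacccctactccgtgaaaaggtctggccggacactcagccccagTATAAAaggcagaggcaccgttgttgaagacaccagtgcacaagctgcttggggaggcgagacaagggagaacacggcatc
Both windows held TATAAA and TGATAA. *Nppa* also held CACTTG on the minus strand (CAAGTG in the letters above) and *Nppb* held CATTCC on the minus strand (GGAATG), and no match overlapped another. Among all 32851 promoter windows of the table, TATAAA was found in 13.6%, TGATAA in 9.05%, CATTCC in 14.7%, CACTTA in 9.20% and CACTTG in 13.6%. These are matches of letters in a window and not measured sites.

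Of the peptide genes, *Nppb* was the more widely detected, with a count in 205 of the 234 cells against 105 for *Nppa*. Read counts of 2 genes can be compared only per length, and here the annotation matters: the antisense gene *Gm13054* covers 532 of the 865 exon bases of *Nppa* (61.5%) and none of the 781 exon bases of *Nppb*. Counting without strand gives reads that fall on both genes to neither, and the strand setting is not given in the sources used here. *Gm13054* itself held between 0 and 25 counts in a sum. Per kb of all exon bases, control CMs held 23.4 and 53.6 normalized CPM of *Nppa* and 535 and 187 of *Nppb* in mice M26 and M73. Per kb of the 333 exon bases that *Nppa* does not share, its values become 60.6 and 139, still below those of *Nppb* in both control mice. The exon length of *Nppa* is the same in all samples, so its levels are compared between samples without it.

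*Nppa* reached 381 normalized CPM (373 to 390) in bright CMs of mouse M25 and 197 (193 to 202) in those of mouse M116, against 20.2 (18.2 to 22.4) in control mouse M26 and 46.4 (39.5 to 54.2) in control mouse M73. Both bright values lay above both control values. On the log2 scale bright CMs exceeded control CMs by 3.10 with a standard error of 0.58 (unadjusted p = 0.00164, Benjamini-Hochberg adjusted p = 0.664 over 12203 genes in the quasi-likelihood test of edgeR), so the difference did not pass the threshold of 0.05. Within the library sets *Nppa* was 18.9 times higher in mouse M25 than in mouse M26 (counting interval 17.0 to 21.1) and 4.26 times higher in mouse M116 than in mouse M73 (3.64 to 5.01). Mice M116 and M73 share a set but no plate, and bright CMs of mouse M116 held 42.2 and 405 CPM of *Nppa* on its 2 plates.

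*Nppb* reached 1011 normalized CPM (997 to 1025) in bright CMs of mouse M25 and 596 (588 to 603) in those of mouse M116, against 418 (408 to 427) in control mouse M26 and 146 (133 to 159) in control mouse M73. The groups again did not overlap. Here the log2 fold change was 1.50 with a standard error of 0.54 (unadjusted p = 0.0307, adjusted p = 0.664 in edgeR). Within the library sets *Nppb* was 2.42 times higher in bright than in control CMs (2.36 to 2.49) for mice M25 and M26 and 4.08 times higher (3.74 to 4.47) for mice M116 and M73.

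**Figure D1:**
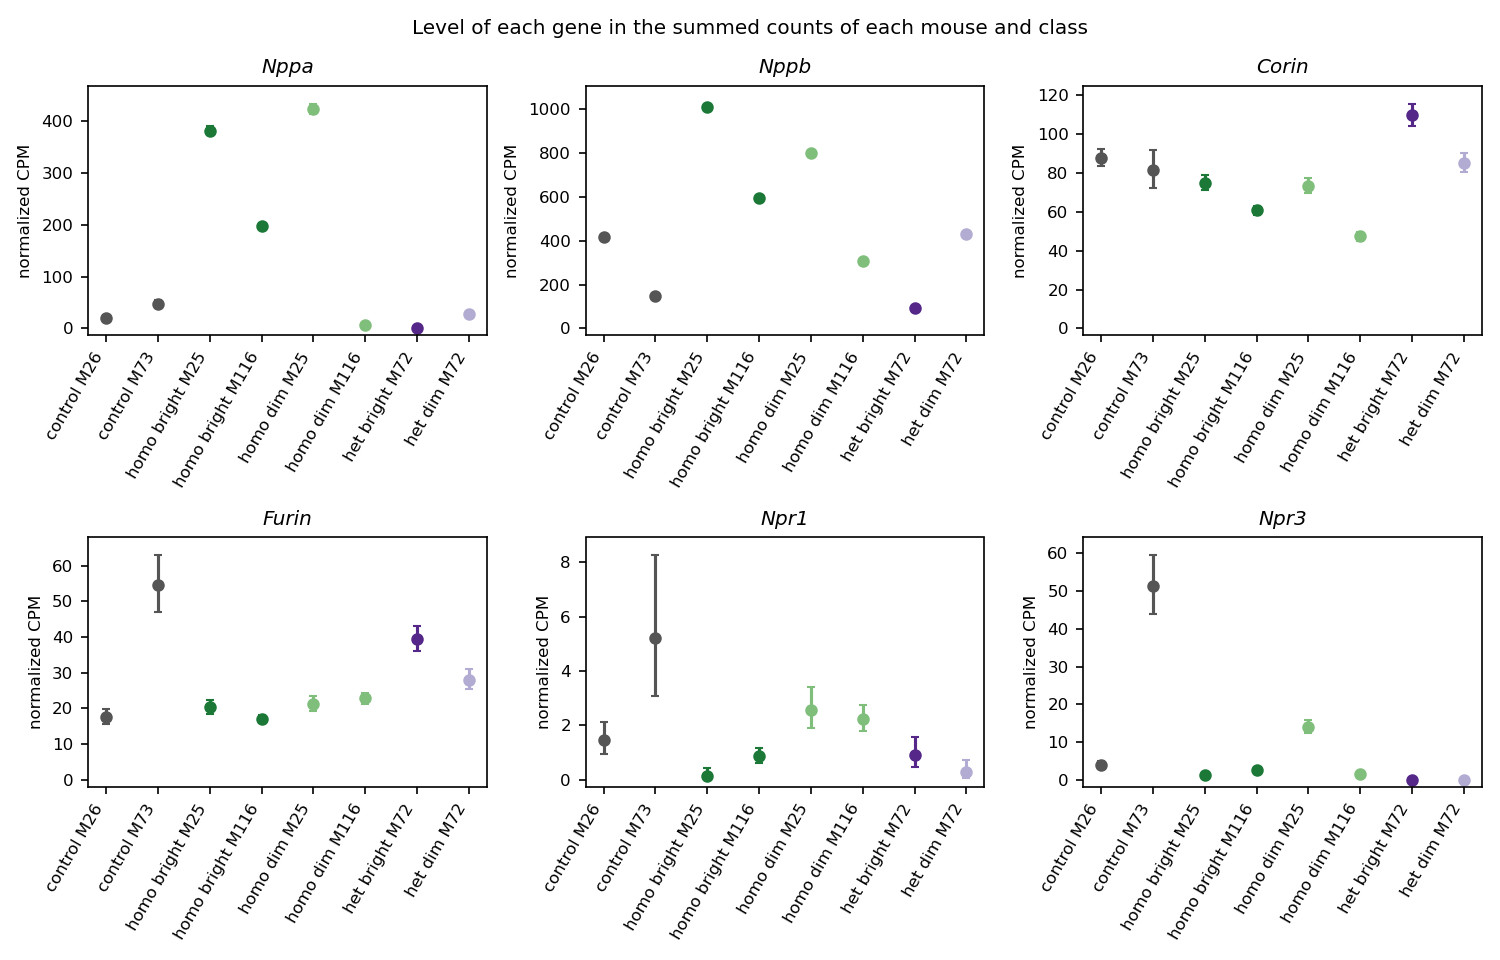
Normalized CPM (y axis, linear) of each gene in the summed counts of each mouse and class (x axis); points are sums and bars are 95% Poisson intervals, smaller than the point where not seen. *Nppa* and *Nppb* were highest in sums of mouse M25, and the 2 control mice differed most in *Furin*, *Npr1* and *Npr3*, where mouse M73 stood highest.

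Between bright and control CMs, 0 of the 6 genes passed the threshold in edgeR (0.0164% of all genes tested did, namely the transgene features hBAG and BAG-eGFP), 3 had an unadjusted p under 0.05, and DESeq2 on the same sums called 1, *Nppa* (0.869% of all genes). Of the 3, *Nppa* and *Nppb* were higher, where 4.7% of all genes were higher at that p, and *Npr3* was lower, where 1.85% were. The 2 bright sums exceeded the 2 control sums in 2 of the 6 genes (24.6% of all genes) and lay below them in 3 (14.3% of all genes), *Corin* (not without TMM), *Npr1* and *Npr3*. The median log2 fold change of the 6 genes was -0.66, beside 0.11 over all genes tested. The call depended on the settings: without a filter on counts edgeR called *Nppa* and *Nppb* (0.787% of all genes), and leaving out mouse M116, so that mouse M25 stands alone for bright CMs and is assumed to vary like the controls, it called *Nppa* (0.308%). With the library set as a block *Nppa* had an adjusted p of 0.0604 in edgeR and *Nppb* one of 0.171.

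Among dim CMs the homozygous mice went apart for *Nppa*. Dim CMs of mouse M25 held 424 normalized CPM (414 to 433), beside 381 in its bright CMs, and dim CMs of mouse M116 held 6.32 (5.54 to 7.18), the lowest value of the homozygous sums and below both control mice. The ratio between the dim CMs of the 2 mice was 67.0 (58.9 to 76.5), while between their bright CMs it was 1.93 (1.87 to 1.99). The log2 fold change of dim against control CMs was 2.68 with a standard error of 1.51 (adjusted p = 0.953 in edgeR), and it became -2.37 without the dim CMs of mouse M25 (adjusted p = 1.00). Without those of mouse M116 it was 3.64 and passed the threshold (adjusted p = 0.000382, with mouse M25 alone in its group; 0.0602% of all genes passed). The direction of this comparison therefore depended on which homozygous mouse was included.

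*Nppb* showed the same order of the mice with a smaller gap, with 801 normalized CPM (789 to 814) in dim CMs of mouse M25 and 310 (304 to 315) in those of mouse M116. The lower of these lay between the 2 control mice. Its log2 fold change against control CMs was 0.97 with a standard error of 0.62 (adjusted p = 0.975 in edgeR), and within the library sets dim CMs held 1.92 times (1.87 to 1.97) and 2.12 times (1.94 to 2.33) the control level.

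Between dim and control CMs edgeR called 0 of the 6 genes (0% of all genes tested), DESeq2 called 0, and 0 had an unadjusted p under 0.05 in edgeR. Without a filter on counts edgeR called 1, *Nppa* (0.287% of all genes). The 2 dim sums exceeded the 2 control sums in 0 of the 6 genes (24.1% of all genes) and lay below them in 1, *Corin* (13.7%), which overlapped without TMM. The control sums are those of the previous comparison, so both comparisons share any peculiarity of mice M26 and M73.

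Bright and dim CMs of the same mouse gave 0 calls among the 6 genes in edgeR (0% of all genes tested), 0 in DESeq2 and 0 at an unadjusted p under 0.05 in edgeR (4.12% of all genes). These fits do not pair the classes of a mouse. With the mouse as a block 1 gene, *Nppb*, had an unadjusted p under 0.05 (3.48% of all genes), at a log2 fold change of 0.63 (standard error 0.17, unadjusted p = 0.0202, adjusted p = 1 in edgeR), and *Nppa* gave 2.36 (standard error 1.62, adjusted p = 1). Without the block, for *Nppa* the log2 fold change of bright against dim CMs was 0.42 with a standard error of 1.50 (adjusted p = 0.999 in edgeR). In mouse M25 bright CMs held 0.901 times the level of dim CMs (0.873 to 0.930), and in mouse M116 they held 31.2 times that level (27.5 to 35.7). For *Nppb* the log2 fold change was 0.53 with a standard error of 0.50 (adjusted p = 0.999 in edgeR), and bright CMs held 1.26 times (1.24 to 1.29) and 1.92 times (1.88 to 1.97) the level of dim CMs. Both bright sums lay above both dim sums in 0 of the 6 genes (15.3% of all genes) and lay below them in 2, *Furin* and *Npr1* (15.8%).

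The order of the sums by *Nppa* was not their order by the transgene. Dim CMs of mouse M25 had the highest *Nppa* of all 8 sums, 424 normalized CPM, beside 10.4 normalized CPM of hBAG, the lowest hBAG of the transgenic sums. Dim CMs of mouse M116 had 6.32 normalized CPM of *Nppa* beside 91.1 of hBAG. Within mouse M116 the class with more hBAG (209 against 91.1 normalized CPM) held 31.2 times the *Nppa* of the other class. That class held 46.8 times the *Nppa* in mouse M72 (hBAG 243 against 110) and 0.901 times in mouse M25 (280 against 10.4). For *Nppb* it held 1.26, 1.92 and 4.54 times the level in mice M25, M116 and M72. A link with the transgene was not tested. Over single cells within a mouse and class, Spearman's rho of *Nppa* with hBAG lay between -0.13 and 0.22 in the 6 transgenic sets, each of 18 to 59 cells, and that of *Nppb* with hBAG between -0.07 and 0.26. These cells share their library set and mouse, and the coefficients are given as a description.

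Over the 5 labels, *Nppa* levels came in the order homozygous bright (197 and 381), homozygous dim (6.32 and 424), control (20.2 and 46.4), heterozygous labelled dim (28.4) and heterozygous labelled bright (0.608). The 2 dim values enclosed both bright and both control values, so the place of dim CMs in this order is not set apart from its neighbours. The value of heterozygous cells labelled dim lay between the 2 control values. For *Nppb* the order was homozygous bright (596 and 1011), homozygous dim (310 and 801), heterozygous labelled dim (431), control (146 and 418) and heterozygous labelled bright (94.9), with overlap between homozygous bright and dim and between homozygous dim and control. The value of heterozygous cells labelled dim lay between the 2 homozygous dim values.

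*Nppa* was carried by few cells. In the whole series 6 cells held 50% of its 25697 counts and 15 cells held 90%, whereas for *Nppb* it took 31 and 101 cells and for *Corin* 42 and 119. In control mouse M26 a single cell held 74.3% of the *Nppa* counts (269 of 362), and in control mouse M73 a single cell held 80.0% (128 of 160). In bright CMs the highest cell held 38.3% in mouse M25 (2901 counts) and 28.9% in mouse M116 (2575 counts). The median cell had 0 CPM in the bright CMs of mouse M116 and in both control mice, 8.75 CPM in bright and 6.79 CPM in dim CMs of mouse M25. When the cell with most *Nppa* was left out of each sum, an alternative chosen after the values were seen, the log2 fold change of bright over control CMs became 4.66 (standard error 0.57, adjusted p = 0.367 in edgeR). When each cell was instead weighted equally, by limma on the mean log value per cell, it was 1.59 for *Nppa* (standard error 0.72, adjusted p = 0.529), below the 2.55 of *Nppb* (standard error 0.66, adjusted p = 0.529). Dim over control CMs then gave 0.61 for *Nppa* (standard error 0.92, adjusted p = 0.783) and 2.25 for *Nppb* (standard error 0.79, adjusted p = 0.450). The order of both peptides by size of the difference thus turned in this setting, which changed the weighting, the log averaging and the test together.

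**Figure D2:**
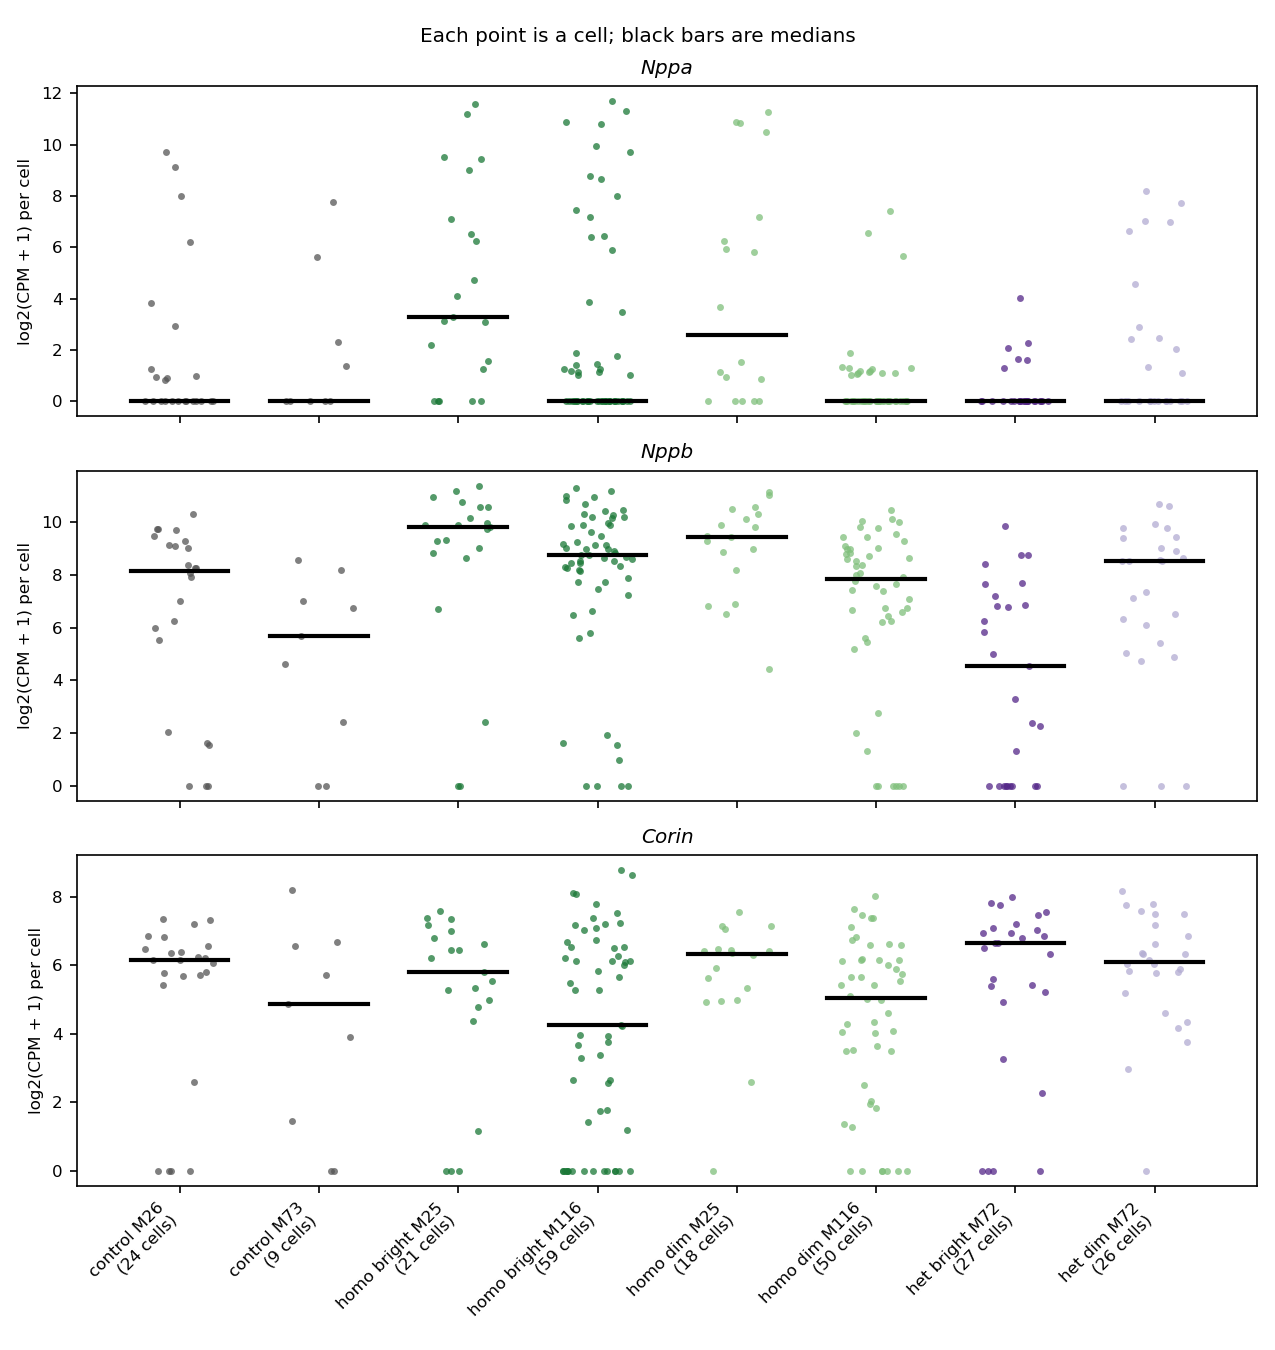
Level per cell as log2(CPM + 1) (y axis) of *Nppa*, *Nppb* and *Corin* in the cells of each mouse and class (x axis); points are cells and black bars are medians. *Nppa* had a median of 0 in 6 of the 8 sets and was very high in a few cells, while *Nppb* and *Corin* were spread over most cells.

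More than 100 CPM of *Nppa* was found in 3 of 24 and 1 of 9 control CMs (mice M26 and M73), in 6 of 21 and 11 of 59 bright CMs (mice M25 and M116), in 5 of 18 and 1 of 50 dim CMs, and in 0 of 27 and 4 of 26 heterozygous cells labelled bright and dim. Of these 31 cells, 25 had at least 100000 counts, a depth limit chosen after the values were seen. In shallower cells a single count can exceed 100 CPM. At that depth the cells over 100 CPM were 1 of 20 and 1 of 8 in the control mice, 6 of 21 and 8 of 52 in bright CMs, 5 of 18 and 1 of 48 in dim CMs, and 0 of 23 and 3 of 24 in mouse M72. The 25 cells had a median of 1280 CPM of *Nppb*, beside 287 CPM in the other cells of that depth. In bright CMs these medians were 1872 and 630 CPM (M25) and 1220 and 414 CPM (M116), and in mouse M72 cells labelled dim 382 and 372 CPM. Spearman's rho between the 2 genes over all cells was 0.73 (M25) and 0.44 (M116) in bright homozygous CMs, 0.61 and 0.05 in their dim CMs, 0.45 and 0.48 in control mice M26 and M73, and 0.16 and -0.05 in mouse M72 cells labelled bright and dim. In cells with at least 100000 counts it was, in the same order, 0.73 and 0.45, 0.61 and 0.06, 0.54 and 0.41, and 0.32 and 0.10.

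**Figure D3:**
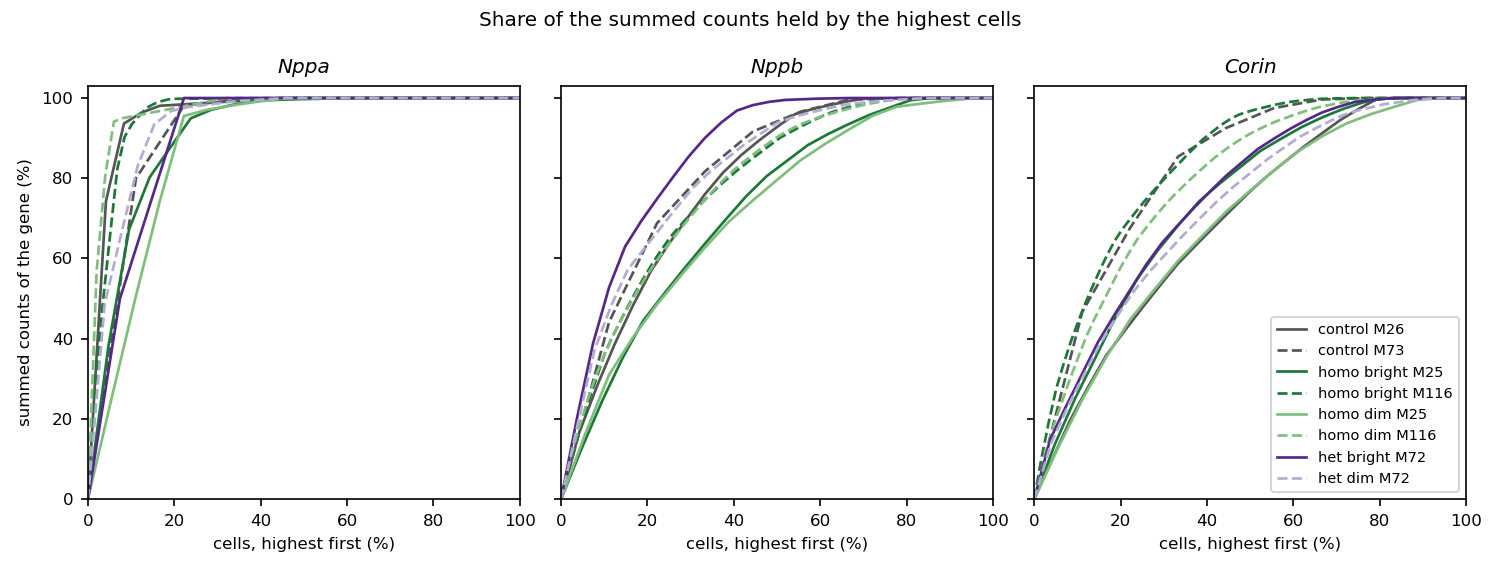
Share of the summed counts of a gene (y axis, %) held by the highest cells of each mouse and class (x axis, share of cells in %, highest first); each line is a mouse and class. The *Nppa* curves rise steeply, with 1 to 3 cells of each set holding 50% of its counts, and those of *Nppb* and *Corin* rise more slowly.

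The bright CMs of mouse M116 lay on 2 plates, which gives a look at the spread within a mouse and class. They held 42.2 CPM of *Nppa* on one plate (29 cells) and 405 CPM on the other (30 cells), with a count in 10 and 17 cells. Its dim CMs held 11.2 CPM (29 cells) and 0.642 CPM (21 cells) on the same plates, so bright CMs were above dim CMs on each plate. *Nppb* was steadier, with 502 and 831 CPM in bright and 363 and 302 CPM in dim CMs. *Nppa* thus differed more than *Nppb* between plates of the same mouse and class.

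No difference in the share of cells with a count passed a test. *Nppa* had a count in 11 of 24 and 4 of 9 control CMs (45.8% and 44.4%), in 16 of 21 and 27 of 59 bright CMs (76.2% and 45.8%), and in 13 of 18 and 16 of 50 dim CMs (72.2% and 32.0%). The exact 95% interval was 52.8% to 91.8% in bright CMs of mouse M25 and 32.7% to 59.3% in those of mouse M116. *Nppb* had a count in 87.5% and 77.8% of control, 90.5% and 93.2% of bright, and 100% and 88.0% of dim CMs, so bright and dim shares were both above the control shares. Two-sided exact permutation tests over mice gave an adjusted p of 1.00 for every gene in bright against control CMs and between 0.667 and 1.00 in dim against control CMs (12 tests, 6 in each family), and 2 mice against 2 cannot give an unadjusted p below 0.333. With each cell thinned to 100000 counts, which left out 20 shallower cells, the share for *Nppa* was 15.0% and 37.5% in control and 52.4% and 25% in bright CMs, and the small lead of bright CMs in *Nppb* turned to -1.67 percentage points.

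**Figure D4:**
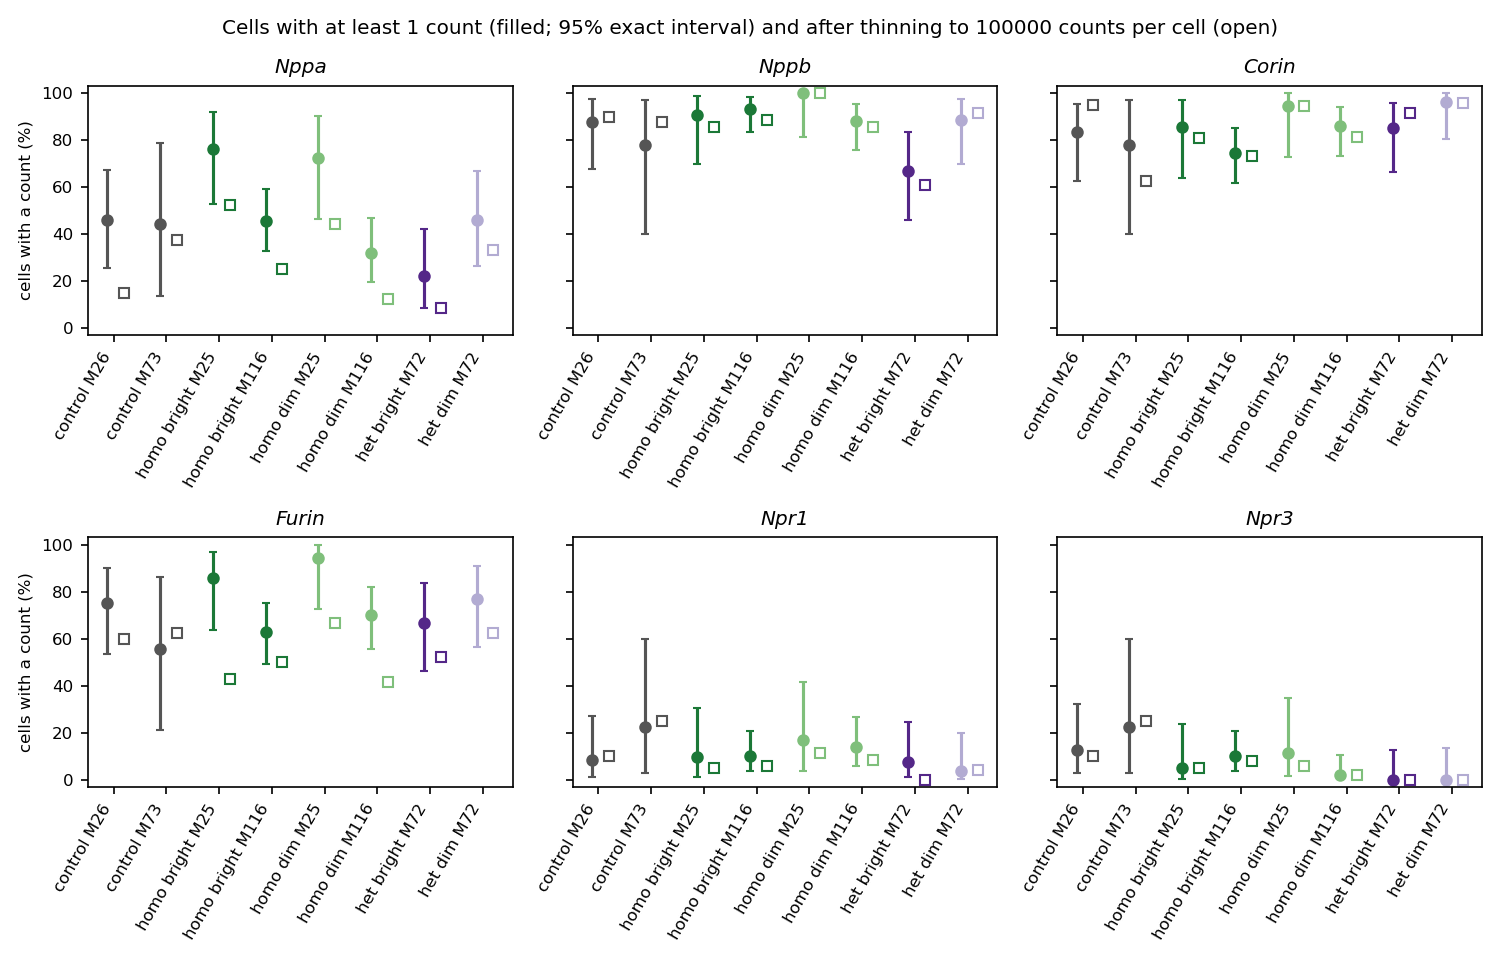
Cells with at least 1 count of each gene (y axis, %) in each mouse and class (x axis); filled points are all cells with 95% exact binomial intervals, and open squares are cells thinned to 100000 counts. For each gene the intervals of control CMs overlap those of bright and dim homozygous CMs, and over all cells *Npr1* and *Npr3* reach at most 22.2%.

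*Corin*, which activates ANP, varied least of the 6 genes over the 8 sums, from 47.4 to 110 normalized CPM. It lay at 87.7 normalized CPM (83.4 to 92.1) and 81.5 (72.2 to 91.6) in control mice M26 and M73, at 74.8 (71.0 to 78.7) and 60.8 (58.6 to 63.1) in bright CMs, and at 73.2 (69.4 to 77.2) and 47.4 (45.2 to 49.6) in dim CMs of mice M25 and M116. Both homozygous mice were below both control mice in either class on this TMM scale only. Without TMM the values were 80.3 and 68.6 CPM in control, 78.5 and 67.7 in bright and 75.8 and 51.8 in dim CMs, so the groups overlapped. Compared with control CMs the log2 fold change was -0.34 (standard error 0.37, adjusted p = 0.95) in bright and -0.51 (standard error 0.41, adjusted p = 0.991) in dim CMs in edgeR (-0.025 and -0.22 without TMM), and that of bright against dim CMs was 0.16 (standard error 0.31, adjusted p = 0.999). A count was found in 197 of the 234 cells, and in at least 74.6% of the cells of each set. With each cell weighted equally, by limma on the mean log value per cell, the change in dim CMs turned to 0.38. The direction in dim CMs thus depended on the setting, which changed more than the weighting. The gene spans chr5:72300025-72504473 on the minus strand.

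*Furin*, which cleaves the BNP precursor, stood apart in control mouse M73. It lay at 17.7 normalized CPM (15.8 to 19.7) in control mouse M26 and 54.5 (47.0 to 62.9) in control mouse M73, at 20.3 (18.4 to 22.4) and 17.0 (15.8 to 18.3) in bright CMs, and at 21.4 (19.4 to 23.6) and 22.8 (21.3 to 24.4) in dim CMs of mice M25 and M116. All 4 homozygous sums were thus close to control mouse M26, and the log2 fold changes of -0.99 in bright (standard error 0.73, adjusted p = 0.925 in edgeR) and -0.72 in dim CMs (standard error 0.70, adjusted p = 0.999 in edgeR) followed mouse M73: without it they were 0.09 and 0.32. In mouse M73, the smallest set with 9 cells, 2 cells held at least 50% of the 188 counts. A count was found in 168 of the 234 cells. The gene spans chr7:80388585-80405436 on the minus strand.

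Per kb of exon, control CMs held 16.2 and 15.1 normalized CPM of *Corin* and 1.93 and 5.94 of *Furin*, well below *Nppb*. *Corin* and *Nppa* counts were found together in 91 of the 105 cells with *Nppa*, and *Furin* and *Nppb* counts in 157 of the 205 cells with *Nppb*. Over all 234 cells *Corin* was found in 197 and *Furin* in 168.

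The receptor genes were rare in these cells. *Npr1* had a count in 25 of the 234 cells and *Npr3* in 15, with 235 and 717 counts in all. *Npr1* lay at 1.45 normalized CPM (0.947 to 2.13) and 5.22 (3.09 to 8.25) in control mice M26 and M73, at 0.151 (0.0312 to 0.442) and 0.865 (0.615 to 1.18) in bright CMs, and at 2.57 (1.90 to 3.40) and 2.23 (1.78 to 2.76) in dim CMs of mice M25 and M116. Both bright values were below both control and both dim values. The log2 fold change of bright CMs was -2.70 against control CMs (standard error 1.72, adjusted p = 0.893 in edgeR), with -1.48 without control mouse M73, -4.41 without mouse M116, -0.61 without the highest cell of each sum (chosen after the values were seen) and -0.33 with cells weighted equally. It was -2.23 against dim CMs (standard error 1.39, adjusted p = 0.999 in edgeR). The bright sum of mouse M25 rests on 3 counts, 0.104 times the level of mouse M26 with a counting interval of 0.0202 to 0.34. The gene spans chr3:90450591-90465866 on the minus strand.

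*Npr3* lay at 3.91 normalized CPM (3.04 to 4.93) in control mouse M26 and 51.3 (44.0 to 59.5) in control mouse M73, at 1.36 (0.896 to 1.98) and 2.64 (2.19 to 3.16) in bright CMs, and at 14.0 (12.4 to 15.8) and 1.51 (1.15 to 1.96) in dim CMs of mice M25 and M116. Of the 177 counts in mouse M73, 151 were in a single cell, and of the 267 counts in dim CMs of mouse M25, 266 were. Bright against control CMs gave a log2 fold change of -3.82 (standard error 1.40, unadjusted p = 0.0329, adjusted p = 0.677 in edgeR), without control mouse M73 it was -0.95 (adjusted p = 0.812), and without the highest cell of each sum, chosen after the values were seen, -2.35 (adjusted p = 0.953). With each cell weighted equally, by limma, it was -0.71 (adjusted p = 0.548), and in the cells with few markers of other cell types described next -0.36 (adjusted p = 0.9999 in edgeR). For dim CMs *Npr3* gave -1.84 (standard error 1.45, adjusted p = 0.987 in edgeR). No *Npr3* count was found in mouse M72, with 0 of 27 cells labelled bright and 0 of 26 labelled dim, which allows a share of up to 11.1% and 11.5% (3 cells of each number, close to a one-sided 95% limit), while the two-sided exact intervals reach 12.8% and 13.2%. Of these cells 4 and 2 had under 100000 counts, so the limits concern cells with a count and not cells that express the gene. The gene spans chr15:11839896-11907287 on the minus strand.

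Receptor counts moved with markers of other cell types. *Npr1* had a count in 5 of the 162 cells with at most 100 CPM of such markers (3.09%, exact interval 1.01% to 7.06%) and in 20 of the 72 other cells (27.8%, 17.9% to 39.6%), which held 89.8% of its counts. *Npr3* had a count in 5 (3.09%) and 10 (13.9%, 6.87% to 24.1%) of these cells, and the 72 cells held 91.8% of its counts. The median depth was 714996 counts in the 162 and 707972 in the 72 cells. These shares pool the cells of all mice, and the exact intervals treat cells as independent and leave out the spread between mice. The mice entered unequally: 20 of 24 cells of control mouse M26 and 4 of 9 of control mouse M73 were among the 162. Among cells with at least 100000 counts, 25 had *Npr1* and 189 did not. The 25 had a median of 5 of the 6 endothelial markers (*Pecam1*, *Cdh5*, *Tie1*, *Emcn*, *Kdr*, *Nfatc1*) and 195 CPM of them. The 189 had a median of 0. The 25 also had a median of 3 of the 6 fibroblast markers (92.3 CPM) and 1 of the 4 smooth muscle markers, against 0 of each. Immune markers had a median of 0 in both. Median depth was 878996 counts in the 25 and 717122 in the 189. The 15 with *Npr3* had medians of 144 CPM (endothelial) and 72.8 CPM (fibroblast), against 0.933 and 0 CPM in the 199 without. Smooth muscle and immune medians were 0 there. In the 162 cells *Npr1* lay at 0 CPM in both control mice, 0.155 and 0.576 CPM in bright and 0.334 and 0.0486 CPM in dim CMs (mice M25 and M116). No value can lie below 0, so these cells cannot show whether bright CMs were below control CMs. The filter of edgeR left *Npr1* out in all 3 comparisons. In the same cells *Npr3* lay at 1.22 and 0 CPM in control and 0 and 1.29 CPM in bright CMs, so the groups overlapped, and at 0 CPM in dim CMs of both mice. The log2 fold change of *Npr3* in bright against control CMs was -0.36 there (standard error 2.06, adjusted p = 0.9999 in edgeR), beside -3.82 in all cells.

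**Figure D5:**
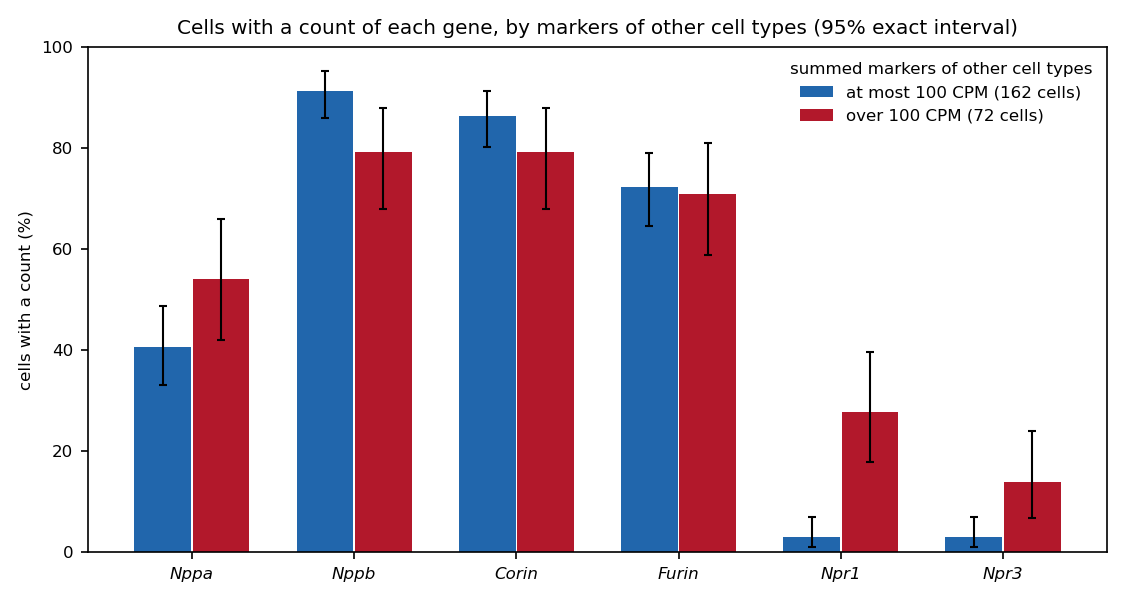
Cells with a count of each gene (y axis, %) among cells with at most 100 CPM (blue) and over 100 CPM (red) of summed endothelial, fibroblast, smooth muscle and immune markers; bars are shares over all mice and lines are 95% exact binomial intervals. The shares of *Npr1* and *Npr3* were higher in the red bars, 27.8% and 13.9% against 3.09% for each in the blue bars. The intervals treat cells as independent and leave out the spread between mice.

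For the other genes the shares in the 162 and the 72 cells were 40.7% and 54.2% for *Nppa*, 91.4% and 79.2% for *Nppb*, 86.4% and 79.2% for *Corin*, and 72.2% and 70.8% for *Furin*. In the 162 cells *Nppa* lay at 20.9 and 66.0 CPM in control, 273 and 238 CPM in bright, and 659 and 9.68 CPM in dim CMs (mice M26, M73, M25, M116, M25 and M116), and *Nppb* at 390 and 189 CPM in control, 985 and 734 CPM in bright and 1079 and 349 CPM in dim CMs. Bright against control CMs in these cells, a selection made after the values were seen, gave a log2 fold change of 2.23 for *Nppa* (standard error 0.65, adjusted p = 0.885 in edgeR) and 1.33 for *Nppb* (standard error 0.41, adjusted p = 0.885). Dissociation-response genes (*Fos*, *Junb*, *Atf3*, *Egr1*, *Hspa1a*) together lay at 70.1 and 16.4 CPM in control, 400 and 397 CPM in bright and 92.7 and 481 CPM in dim CMs. Their part in the peptide levels was not tested.

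In the heterozygous mouse M72 the peptides were low in the cells labelled bright, which also held less transgene. *Nppa* had 8 counts in those 27 cells, 0.608 normalized CPM (0.262 to 1.20), and 398 counts in the 26 cells labelled dim, 28.4 (25.7 to 31.4), a ratio of 46.8 with a counting interval of 23.5 to 109. *Nppb* lay at 94.9 (89.7 to 100) and 431 (420 to 442) normalized CPM, 4.54 times higher (4.27 to 4.83) in cells labelled dim. *Corin* (110 and 85.3), *Furin* (39.4 and 28.1) and *Npr1* (0.912 and 0.286, from 12 and 4 counts) had higher values in cells labelled bright, where the counting interval of the *Npr1* ratio, 0.966 to 13.6, includes 1. With a single mouse there is no test of these differences against the spread between animals. *Nppb* had a count in 18 of 27 cells labelled bright (66.7%) and 23 of 26 labelled dim (88.5%), with exact intervals of 46.0% to 83.5% and 69.9% to 97.6%.

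Of 19 listed features of natriuretic peptide and cGMP signalling, 10 were tested in bright against control CMs, and 6 were higher and 4 lower with 0 past the threshold in edgeR (2 at an unadjusted p under 0.05). Of all genes tested, 54.1% were higher and 6.55% had such a p. The median log2 fold change of the 10 was 0.44, beside 0.11 over all genes. In dim against control CMs 11 were tested, 6 higher and 5 lower (median 0.15), and in bright against dim CMs 12, 6 higher and 6 lower (median -0.01), with 0 past the threshold and 0 at an unadjusted p under 0.05. The genes of the third peptide CNP (*Nppc*) and of osteocrin (*Ostn*), a ligand of the clearance receptor, had no count in any cell. *Pcsk6*, the convertase of corin, is named here after its values were seen. It lay at 2.12 and 0 normalized CPM in control, 12.5 and 1.33 in bright and 0 and 4.65 in dim CMs (adjusted p = 0.925 for bright against control CMs in edgeR), and the groups overlapped. *Prkg1*, the cGMP-dependent protein kinase, lay at 3.24 and 0.290 normalized CPM in control, 8.92 and 38.3 in bright and 14.6 and 8.31 in dim CMs. The homozygous sums were all above the control sums, a place that 24.6% of all genes had in bright and 24.1% in dim CMs. Log2 fold changes of *Prkg1* were 3.64 in bright (standard error 1.38, adjusted p = 0.720 in edgeR) and 2.61 in dim CMs (standard error 1.44, adjusted p = 0.945 in edgeR). *Pde9a*, a cGMP phosphodiesterase, had no count in control CMs and lay at 4.03 and 1.20 normalized CPM in bright and 0 and 0.239 in dim CMs (adjusted p = 0.664 against control and 0.999 against dim CMs in edgeR).

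*Ide*, the insulin-degrading enzyme that also degrades natriuretic peptides, lay at 105 and 233 normalized CPM in control, 91.8 and 95.6 in bright and 88.0 and 115.97 in dim CMs. Its log2 fold changes were -0.88 (adjusted p = 0.866) and -0.75 (adjusted p = 0.975) in edgeR. *Gucy1a1*, a subunit of the soluble guanylyl cyclase that nitric oxide activates, lay at 8.54 and 13.9 normalized CPM in control and 1.73 and 3.77 in dim CMs, a log2 fold change of -2.04 (adjusted p = 0.960). Between bright and dim CMs, *Mme*, which encodes the peptide-cleaving enzyme neprilysin, lay at 0 and 0.333 against 5.15 and 1.46 normalized CPM (adjusted p = 0.999 in edgeR), and *Pde3a*, a cGMP-inhibited phosphodiesterase, at 102 and 117 against 64.6 and 87.7, a log2 fold change of 0.51 (adjusted p = 0.999 in edgeR).

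Transcription factors known to act on the *Nppa* and *Nppb* promoters did not differ past the threshold. Of 18 listed, 15 were tested in bright against control CMs (7 higher and 8 lower, median log2 fold change -0.12), 16 in dim against control CMs (8 and 8, median 0.09) and 18 in bright against dim CMs (10 and 8, median 0.14), with 0 calls in edgeR and 0, 1 and 2 at an unadjusted p under 0.05, which 6.55%, 6.22% and 4.12% of all genes had. *Gata4* lay at 62.1 and 20.3 normalized CPM in control and 50.9 and 76.1 in bright CMs (adjusted p = 0.949 in edgeR), and *Mef2c* at 33.8 and 55.4 and at 51.7 and 79.6 (adjusted p = 0.936). *Egr1*, an immediate-early factor that is also in the dissociation list, lay at 32.0 and 4.06 in control and 162 and 16.3 in bright CMs (adjusted p = 0.876 in edgeR). *Mef2a* lay at 150 and 182 normalized CPM in dim CMs against 112 and 124 in control CMs (adjusted p = 0.980 in edgeR). *Rest*, a repressor of both peptide genes, lay at 11.5 and 48.4 in control, 27.7 and 26.5 in bright and 11.8 and 17.8 in dim CMs (adjusted p = 0.991 for dim against control and 0.999 for bright against dim CMs in edgeR). *Nr2f1* and *Nfatc4*, which had the smallest p in comparisons with dim CMs, stayed at or below 2.94 normalized CPM in every sum.

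The genes most like *Nppb* over the 8 sums (Pearson r of log2 normalized CPM, 7498 genes ranked) were *Plcg2* (r = 0.98), *C1d* (0.97), *Polr2m*, *Pik3ip1* and *Prxl2b* (each 0.96). For *Nppa* they were *Thoc5* (0.94), *Rps3* (0.93), *Pik3ip1* (0.92), *Lta4h* and *Mfge8* (each 0.91). *Pik3ip1* was among the 5 for both peptides and lay at 8.81 and 5.51 normalized CPM in control, 19.1 and 13.9 in bright, 18.2 and 7.46 in dim CMs, and 1.82 and 7.15 in mouse M72 cells labelled bright and dim. These 8 sums come from 5 mice and share library sets, and the 5 genes are the highest of 7498.

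Over single cells, the gene most like *Nppb* was *Ankrd1*, a stretch-responsive gene of CMs, with a mean Spearman's rho of 0.45 over the 8 mouse-and-class sets (7963 genes ranked). Its rho was above 0 in all 8 sets, from 0.0037 in mouse M72 cells labelled bright to 0.75 in bright CMs of mouse M25. *Xirp2* (0.41), *Rpl27* (0.40), *Sorbs2* (0.40) and *Gm39214* (0.40) followed. *Ankrd1* lay at 200 and 232 normalized CPM in control, 1246 and 1244 in bright and 837 and 617 in dim CMs, with all 4 homozygous sums above both control mice. Of all genes, 24.6% had such a place in bright and 24.1% in dim CMs. The median cell held 285 and 49.9 CPM of *Nppb* in control, 910 and 427 CPM in bright and 699 and 230 CPM in dim CMs. For *Nppa* the most alike were *Gm2a* (0.38), *Nppb* itself (0.36), *Ccz1* (0.35), *Rtn4* (0.34) and *Xirp2* (0.32). *Xirp2*, which encodes an actin-binding protein of the intercalated disc and Z-disc, was thus among the 5 for both peptides.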

How the data were processed

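Single CMs were sequenced with SMART-seq2, without molecular identifiers. The authors deposited raw counts per feature and cell, made with STAR 2.7.0f and its GeneCounts option against a mouse reference to which the transcript sequences of human BAG3 and eGFP had been added; the genome build, annotation and strand column are not given in the sources used here. Coordinates come from GENCODE vM21 (GRCm38) and are used for position and length only. All cells of a mouse and class were added up to 1 sum, since the animal is the replicate, and 2 against 2 sums were compared with edgeR 4.0.16 (R 4.3.3): filterByExpr, TMM, estimateDisp, glmQLFit, glmQLFTest, Benjamini-Hochberg adjustment over all genes tested and a threshold of 0.05. Repeated symbols were kept apart. Bright and dim homozygous sums are paired, as they come from the same 2 animals (r = 0.08 and rho = 0.12 over 13439 genes between their deviations); the block is an alternative. DESeq2 1.42.0 and limma 3.58.1 served as alternatives. Shares used exact Clopper-Pearson intervals and exact permutation tests (scipy 1.17.1). The 6 genes and the gene lists were chosen with earlier results of these data known. Beside the 6 genes, those named were, in each comparison, the 3 genes of the pathway and of the regulator list with the smallest p, and the 5 genes most like each peptide gene; likeness over sums was read among genes with at least 10 CPM in 2 sums and over cells among genes with a count in 20% of cells.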

Additional observations from a re-analysis of the deposited data

Results flagged for a closer look

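The difference of cells labelled bright minus cells labelled dim had the opposite sign in the heterozygous mouse M72 from both homozygous mice for 3 of the 6 genes. They are given on the scale of log2(normalized CPM + 1). For *Nppb* the difference was -2.17 in mouse M72, and 0.33 and 0.94 in mice M25 and M116. For *Npr1* it was 0.57 in mouse M72, and -1.63 and -0.79 in mice M25 and M116. For *Furin* it was 0.48 in mouse M72, and -0.07 and -0.40 in mice M25 and M116. In mouse M25 the ratio of bright to dim CMs for *Furin* had a counting interval of 0.826 to 1.09, which includes 1. The difference between genotypes was not tested, since there is a single heterozygous mouse. In the same mouse the transgene feature hBAG was lower in the cells labelled bright (110 normalized CPM) than in those labelled dim (243), also the other way from mice M25 and M116, and a count of BAG-eGFP was found in 14 of 27 cells labelled bright and 25 of 26 labelled dim. Taken as cells with more minus cells with less hBAG, the 3 differences of mouse M72 turn sign and then have the sign of both homozygous mice, whereas *Corin*, with bright minus dim differences of 0.36 in mouse M72 and 0.030 and 0.35 in mice M25 and M116, then has the opposite sign. The part of the labels in these differences was not tested.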

How the results depend on the processing

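Of 354 values recomputed under an alternative, 298 counted as unchanged, 6 fold changes newly passed the threshold, 27 values moved and 23 reversed. An unchanged fold change kept its direction and side of the threshold, and an unchanged share against control kept its direction. Counts of called genes and shares of bright against dim CMs counted as unchanged when close to their main value. Library sizes without TMM moved the median log2 fold change of all genes from 0.11 to 0.41 (bright against control CMs) and from 0.10 to 0.38 (dim against control CMs), and no direction of the 6 genes turned. Bright against control CMs gave 2 called genes, and 106 with DESeq2, 163 with no filter, 4 with cells weighted equally, 5 with all groups in 1 fit and 10 with the library set as a block. Of the 6 genes, DESeq2 called 1 and no filter 2, with *Nppa* at 3.05 and 3.15 and *Nppb* at 1.53 (no filter). Dim against control CMs gave 0 called genes, and in the same order 55, 58, 1, 1 and 12, with *Nppa* called at 2.73 under no filter (1 of the 6 genes). Bright against dim CMs gave 0, and 89 with DESeq2, 217 with no filter and 2 with cells weighted equally. The cause of these moves was not tested.

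With the mouse as replicate block, the paired fit of bright against dim CMs called 0 genes and 0 of the 6, with *Nppb* at 0.63 (unadjusted p = 0.0202 in edgeR), *Nppa* at 2.36, *Npr1* at -2.64, *Npr3* at -1.28, *Corin* at 0.19 and *Furin* at -0.26, and it changed no call at the adjusted threshold.

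Leaving out each sum in turn, called genes ranged from 0 to 41 (bright against control; 0 without mouse M26, 15 without M25 and 41 without M116), from 3 to 827 (dim against control; 827 without mouse M26, 10 without M25, 8 without M116 and 3 without M73) and from 0 to 74 (bright against dim; 74 without bright CMs of M116), and calls among the 6 genes from 0 to 1 against control. The log2 fold change against control ranged for bright CMs from 2.59 to 3.85 (*Nppa*), 0.95 to 2.42 (*Nppb*) and -1.58 to 0.085 (*Furin*), and for dim CMs from -2.37 to 3.64 (*Nppa*), -1.13 to 0.72 (*Npr1*), -4.16 to 0.98 (*Npr3*) and -1.32 to 0.32 (*Furin*). That of bright against dim CMs ranged from -0.55 to 5.51 (*Nppa*), -2.80 to 0.40 (*Npr3*) and -0.11 to 0.51 (*Corin*).

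Other reversals were of differences that passed no threshold. With cells weighted equally, dim against control gave 0.38 (*Corin*) and 0.26 (*Furin*), and bright against dim 0.014 (*Npr3*) and -0.46 (*Corin*). Without the highest cell of each sum *Npr1* was 1.23 in dim against control, and in cells with few other markers *Nppa* was -0.48 in bright against dim CMs, both chosen after seeing the data. Differences in the share of cells (percentage points) turned in thinned cells to -1.67 (*Nppb*) and -14.8 (*Furin*) for bright and to -7.78 (*Npr1*) and -7.08 (*Furin*) for dim against control CMs. That of *Npr1* in dim CMs also turned to -0.17 at 5 or more counts and -1.88 in cells with 1000 or more genes, where *Corin* turned to -1.74. A sum held 3 to 84 counts of *Npr1*.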
